A study of Caenorhabditis elegans with 6 samples.

Results

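The neuropeptide genes of Caenorhabditis elegans whose names follow flp-N or nlp-N were compared between worms that lack tdp-1 function and wild-type worms. Members were the genes with a probe set annotated to that single symbol, without nlp-24 to nlp-34, which encode antimicrobial-type peptides. The brightest probe set over all 6 arrays stood for each gene. This gave 25 flp and 48 nlp genes, 73 of 17118 genes measured on the array. The rule itself used names and mean signal and no measured difference, but it was set with earlier results of these data known. Total RNA of whole worms of mixed stages was hybridised to the Affymetrix C. elegans Genome Array, with 3 arrays of outcrossed tdp-1(ok803) worms, a loss-of-function allele, and 3 arrays of wild-type N2 worms. The sample descriptions name the mutant samples RB929, and the growth text calls the mutant worms outcrossed. How often they were outcrossed is not given in the sources used here. The worms of both genotypes were grown under standard conditions and differ in the labels by genotype alone. The series describes its replication, 3 samples a genotype, as biological. Values are log2 expression values per probe set, so a difference of 1 is a 2-fold change, and a positive difference means higher in tdp-1(ok803).

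Neuropeptides are short signals cut from larger precursor proteins. In the worm, the flp genes encode FMRFamide-like peptides, which end in an amidated arginine-phenylalanine pair, and the nlp genes encode neuropeptide-like proteins of several unrelated sequence families. The convertase EGL-3 and the carboxypeptidase EGL-21 trim the precursors inside dense core vesicles, the peptides are released with the help of UNC-31, and they act mostly through G protein-coupled receptors. Most members are transcribed in small sets of neurons, which form a minor part of a whole worm. In whole-worm RNA, fewer cells of a type and less RNA per cell cannot be told apart.

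The tdp-1 transcript, measured first as a check of the labels, fell by 3.97 in the mutant (limma adjusted p = 0.000815). Its brighter probe set gave 4.77, 4.78 and 5.47 on the mutant arrays, against 8.86, 9.22 and 8.85 on the wild-type arrays. Over all 22548 probe sets, 13 passed an adjusted p of 0.05 (limma with Benjamini-Hochberg adjustment), 7 higher and 6 lower in the mutant. Array medians lay between 5.41 and 5.52. For actin and Gapdh, control transcripts probed at both ends, the mean log2 gap between 3' and 5' signal, which follows RNA integrity and labelling length, was 4.01, 3.09 and 4.31 on mutant arrays 1 to 3 and 2.69, 4.12 and 2.52 on wild-type arrays 1 to 3. The gap was wider on wild-type array 2 than on mutant arrays 1 and 2, so its ranges overlapped between the genotypes. It was not independent of genotype, since every mutant array had a wider gap than wild-type arrays 1 and 3.

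No flp gene passed the test. Of the 25, 0 passed an adjusted p of 0.05 in limma, where 0.0577% of all probe sets passed (0.031% higher and 0.0266% lower in the mutant). In 1 flp gene, lower in the mutant, the unadjusted p was under 0.05, which 6.97% of probe sets had (3.58% higher and 3.38% lower). The smallest adjusted p among them was 0.612. With array weights in limma, which lean on array 1 of each genotype, 5 flp genes passed, 20% of them, where 27.9% of all probe sets did. Differences ran from -0.50 for flp-4 to 0.11 for flp-10, with a median of -0.20. The median over all 17118 genes was 0.013. Of the 25 differences 21 were negative, 84.0%, where 47.0% of all genes had a negative difference. The count was 18 with quantile normalization, 13 with array weights, and 17 to 23 with 1 array left out, the lowest without mutant array 2 or wild-type array 3. The groups did not overlap for 2 flp genes, both lower in the mutant (8%), where the groups were apart for 11.6% of probe sets, 4.84% wholly lower and 6.80% wholly higher. These counts describe the family and were not tested, since its members were chosen with earlier results known.

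**Figure D1:**
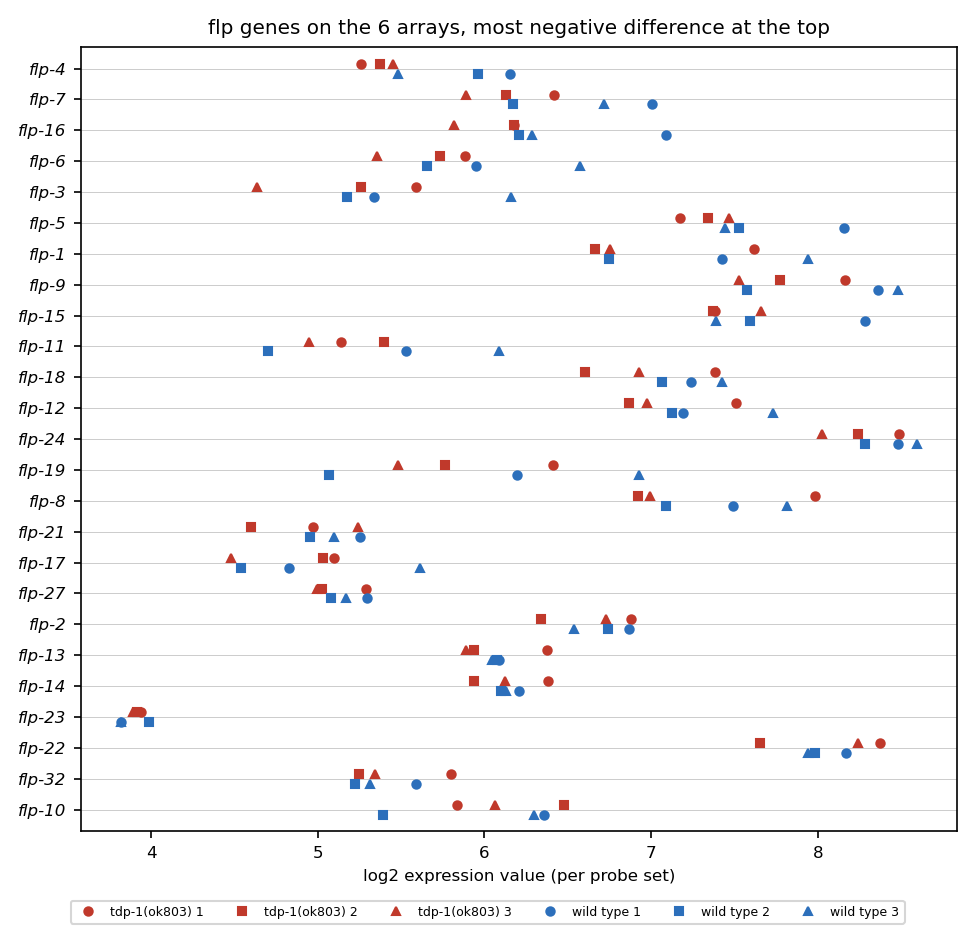
Log2 expression value (x axis) of the 25 flp genes (rows) on each array, with the 3 tdp-1(ok803) arrays in red above the 3 wild-type arrays in blue. Rows run from the most negative difference at the top, flp-4 at -0.50, to flp-10 at 0.11, and the groups overlap in all rows but flp-4 and flp-16.

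The gene flp-4 (C18D1.3, chromosome II), one of the FMRFamide-like precursors, gave 5.26, 5.37 and 5.45 in tdp-1(ok803), against 6.15, 5.96 and 5.48 in wild type. All mutant values lay under all wild-type values, the closest of them only just. The difference was -0.50 ± 0.18 (SE), with a 95% interval from -0.92 to -0.085. The limma adjusted p was 0.612, so flp-4 did not pass. For flp-16 (F15D4.8, chromosome II) the mutant values were 6.18, 6.18 and 5.82, against 7.09, 6.21 and 6.28 in wild type. The groups were again apart by a narrow margin, and wild-type array 1 alone stood high. Its difference was -0.47 ± 0.24 (SE, limma adjusted p = 0.788).

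The gene flp-7, whose peptides are known to carry a fat-loss signal from neurons to the intestine, gave 6.42, 6.13 and 5.89 in tdp-1(ok803), against 7.0, 6.17 and 6.72 in wild type. Mutant array 1 lay above wild-type array 2, so the groups overlapped (difference -0.49 ± 0.23, SE, limma adjusted p = 0.760). For flp-5 the mutant values were 7.17, 7.34 and 7.47, against 8.16, 7.53 and 7.44 in wild type. Only wild-type array 1 stood clear of the rest, and the difference was -0.38 ± 0.20 (SE, limma adjusted p = 0.796). The gene flp-6, known for temperature-dependent control of lifespan from the AFD neuron, gave 5.88, 5.73 and 5.36 in tdp-1(ok803) and 5.95, 5.65 and 6.58 in wild type. Wild-type array 3 was the high one, and the difference was -0.40 ± 0.25 (SE, limma adjusted p = 0.839). The gene flp-3 gave 5.59, 5.26 and 4.63 in tdp-1(ok803) and 5.34, 5.17 and 6.16 in wild type, with the lowest value on mutant array 3 and the highest on wild-type array 3 (difference -0.40 ± 0.31, SE, limma adjusted p = 0.876). At the other end, flp-10 had 5.83, 6.48 and 6.06 in tdp-1(ok803) and 6.36, 5.39 and 6.30 in wild type. Those groups overlapped widely, with a difference of 0.11 ± 0.28 (SE). The largest positive difference after flp-10 was 0.086, for flp-32.

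Among the 48 nlp genes 0 passed as well (limma, adjusted p of 0.05), and 5 had an unadjusted p under 0.05, 2 higher and 3 lower in the mutant. That is 10.4% of them, where 6.97% of probe sets had one. The smallest adjusted p was 0.407, for nlp-55. With array weights 15 nlp genes passed, 31.3% of them, where 27.9% of all probe sets did. Differences ran from -0.74 (nlp-55) to 0.37 (nlp-36), with a median of -0.13 and 30 negative and 18 positive differences. Negative differences made up 62.5% of nlp genes, where 47.0% of all genes had one. The count was 31 with quantile normalization, 32 with array weights, and 26 to 35 with 1 array left out, the lowest without wild-type array 1. With the 3' minus 5' control gap as a covariate it was 27, or 56.3%, where 56.1% of all genes had a negative difference. The most extreme nlp differences lay outside the flp range in both directions. Extremes of 48 genes and of 25 genes are not directly comparable, and that contrast between the families was not tested. The groups did not overlap for 6 nlp genes, 4 lower and 2 higher in the mutant. As shares these are 8.33% and 4.17%, where 4.84% and 6.80% of probe sets were wholly lower and wholly higher.

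**Figure D2:**
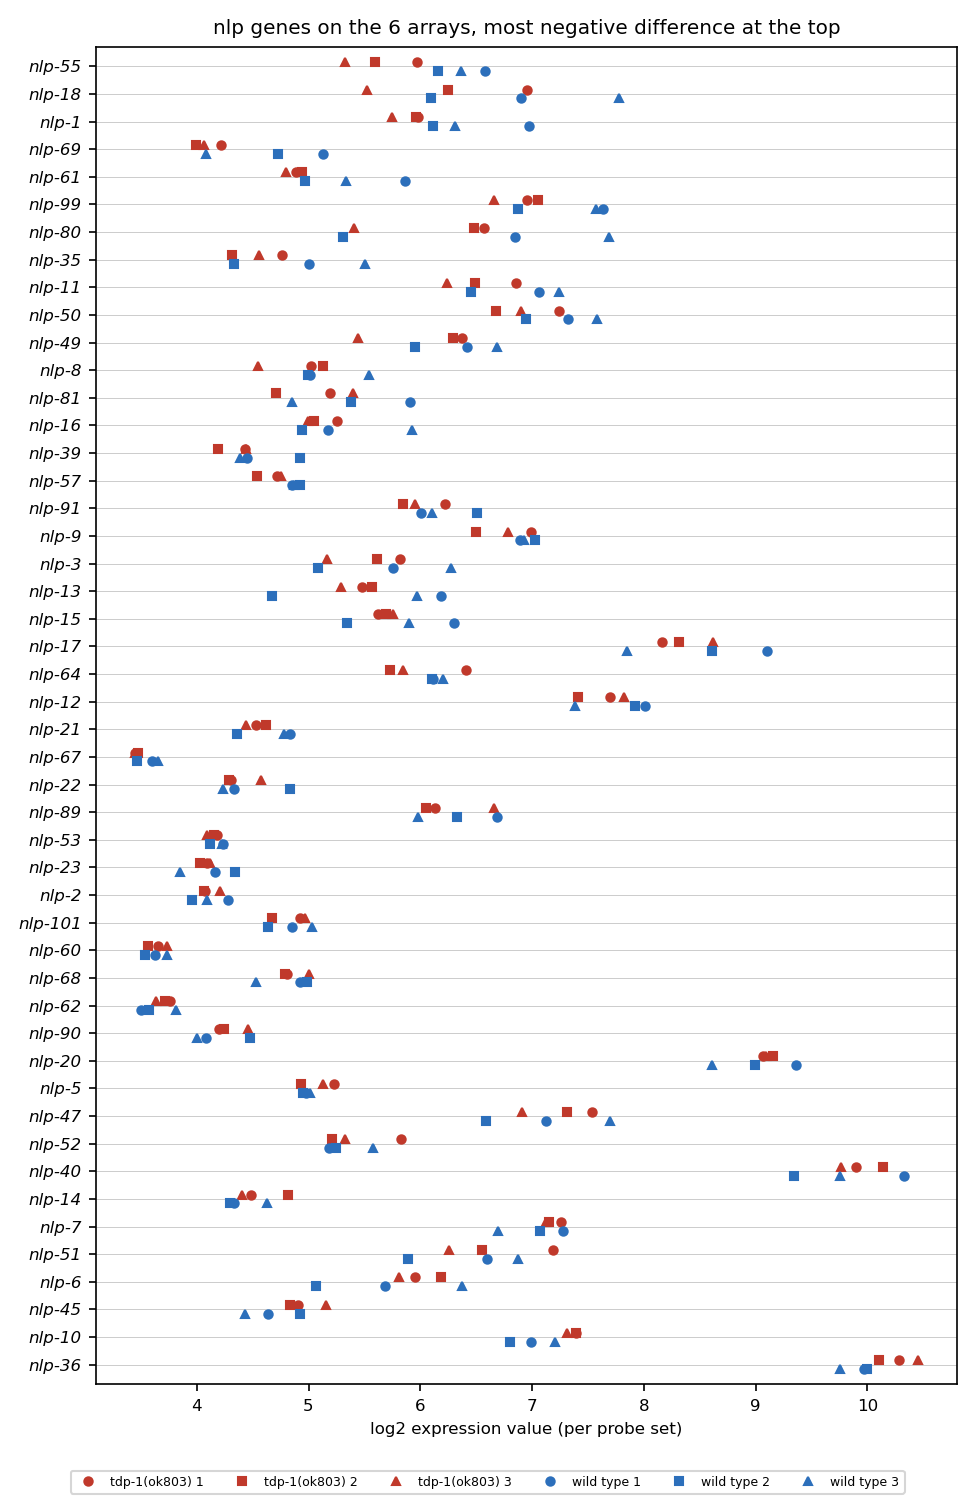
Log2 expression value (x axis) of the 48 nlp genes (rows) on each array, with the 3 tdp-1(ok803) arrays in red above the 3 wild-type arrays in blue. Rows run from nlp-55 (difference -0.74) at the top to nlp-36 (0.37) at the bottom, and the groups are apart for nlp-55, nlp-1, nlp-61, nlp-57, nlp-10 and nlp-36.

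The gene nlp-55 (F14F11.2, chromosome II) gave 5.97, 5.59 and 5.32 in tdp-1(ok803), against 6.58, 6.16 and 6.37 in wild type. No mutant value reached the lowest wild-type one. The difference of -0.74 ± 0.19 (SE), with a 95% interval from -1.18 to -0.30, had a limma adjusted p of 0.407. With any 1 array left out it lay between -0.91 and -0.59. The gene nlp-1 (C01C4.1, chromosome X), whose peptide is released by the olfactory neuron AWC and dampens its own circuit through the receptor NPR-11, gave 5.98, 5.96 and 5.74 in tdp-1(ok803), against 6.97, 6.11 and 6.31 in wild type. The mutant values sat close together under all wild-type values, among which array 1 was the highest. The difference was -0.57 ± 0.22 (SE, limma adjusted p = 0.652), and with any 1 array left out it ran from -0.74 to -0.31. For nlp-61 the mutant values were 4.89, 4.94 and 4.80, against 5.86, 4.97 and 5.33 in wild type. Its probe set is of the kind marked as open to cross-hybridisation. The gap between groups came down to mutant array 2 and wild-type array 2, which nearly met (difference -0.51 ± 0.21, SE, limma adjusted p = 0.706).

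The remaining nlp genes that the test ranked first were split in direction. The gene nlp-10 (F37A8.4, chromosome III) gave 7.39, 7.39 and 7.32 in tdp-1(ok803), against 6.99, 6.80 and 7.21 in wild type. It was higher on every mutant array, by 0.37 ± 0.13 (SE), with a 95% interval from 0.059 to 0.68 and a limma adjusted p of 0.617. The gene nlp-36 (B0464.3, chromosome III) gave 10.29, 10.10 and 10.45 in tdp-1(ok803), against 9.97, 9.995 and 9.76 in wild type. It too was higher on every mutant array, by 0.37 ± 0.14 (SE, limma adjusted p = 0.621), and its probe set is of the kind marked as open to cross-hybridisation. For nlp-69 (mutant values 4.22, 3.99 and 4.06, wild-type values 5.13, 4.72 and 4.08) the lowest wild-type value fell among the mutant ones. The mean signal of nlp-69 lay under the 30th percentile of probe sets, 4.51, so its values were low. For nlp-99 the mutant values were 6.96, 7.05 and 6.66, against 7.63, 6.87 and 7.57 in wild type, and wild-type array 2 lay among the mutant values. The differences of nlp-69 and nlp-99 were -0.55 and -0.47 (limma adjusted p = 0.728 and 0.758). The gene nlp-45 gave 4.91, 4.83 and 5.15 in tdp-1(ok803) and 4.64, 4.92 and 4.43 in wild type, groups that overlapped through wild-type array 2, with a difference of 0.30 (limma adjusted p = 0.800). The sixth nlp gene with groups apart, nlp-57, had 4.72, 4.54 and 4.76 in tdp-1(ok803) and 4.85, 4.92 and 4.87 in wild type, a difference of -0.21 (limma adjusted p = 0.802).

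Grouped by known role, no precursor passed. Of the 8 measured genes tied to movement and arousal, all had a negative difference with all arrays, from -0.36 to -0.00083, and no pair of groups was apart. That count was 5 of 8 without mutant array 2 or with array weights, 6 of 8 with quantile normalization or without wild-type array 1, and 7 of 8 with equal array medians or without mutant array 3. The gene flp-1, whose peptides from the AVK neuron shape body posture and movement, gave 7.62, 6.67 and 6.75 in tdp-1(ok803) and 7.43, 6.75 and 7.94 in wild type. On both genotypes 1 or 2 arrays were high, and the difference was -0.36 ± 0.34 (SE). The genes flp-18 and flp-21 encode ligands of the foraging receptor NPR-1, and they differed by -0.27 and -0.16. Values of flp-18 were 7.38, 6.61 and 6.93 in tdp-1(ok803) and 7.24, 7.06 and 7.43 in wild type, so mutant array 1 lay inside the wild-type range. The gene nlp-12, a cholecystokinin-like precursor of the stretch-sensing neuron DVA, differed by -0.13 and flp-14 by -0.00083. The arousal precursors nlp-49 and flp-2 differed by -0.32 and -0.07, and flp-9 by -0.32. For flp-20, also on this list, no single-symbol probe set was used here.

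The 5 sleep precursors likewise had negative differences without passing. The count was 4 of 5 with quantile normalization, equal array medians, array weights, the 3' minus 5' control gap as a covariate, or any array but mutant array 1 left out. The gene flp-11, the main sleep signal of the neuron RIS, gave 5.14, 5.40 and 4.95 in tdp-1(ok803) and 5.53, 4.70 and 6.08 in wild type. The mutant values lay inside the wild-type range, at a difference of -0.28 ± 0.32 (SE). The genes flp-13, flp-24 and nlp-8, which the neuron ALA uses in sleep after stress, differed by -0.0041, -0.20 and -0.28, and nlp-22, a moulting-sleep peptide of the neuron RIA, by -0.08. The gene flp-13 had mutant values of 6.37, 5.93 and 5.89, which spread around a tight wild-type set of 6.09, 6.08 and 6.05. For flp-24 the mutant values were 8.49, 8.24 and 8.02, against 8.48, 8.28 and 8.60 in wild type, and the groups met at mutant array 1 and wild-type arrays 1 and 2.

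Egg-laying and gut signals went in both directions. The genes flp-10 and flp-17, ligands of the egg-laying receptor EGL-6, differed by 0.11 and -0.13. The gene nlp-3, which promotes egg laying, differed by -0.17, and nlp-7, which restrains it, by 0.16. The intestinal peptide gene nlp-40, which times defecation by acting on AEX-2, gave 9.90, 10.14 and 9.77 in tdp-1(ok803) and 10.33, 9.34 and 9.76 in wild type. The mutant values lay inside the wild-type range (difference 0.13 ± 0.24, SE). In the list on sensory adaptation and feeding state, nlp-1 and nlp-10 are given above, nlp-18 differed by -0.68 ± 0.47 (SE), nlp-9 by -0.19, nlp-14 by 0.15, nlp-5 by 0.11 and nlp-20 by 0.11. This list held some of the larger differences among members. In 2 of its 7 genes (28.6%), nlp-1 and nlp-10, the groups were apart and the unadjusted p was under 0.05 (limma), in opposite directions. Groups were apart for 11.6% of all probe sets, and 6.97% had such a p. None of the 7 passed, and flp-34 had no single-symbol probe set used here. The role lists were chosen with earlier results of these data known, so their shares are descriptions and were not tested.

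Many members varied from array to array together, in a pattern that crossed the genotypes. Wild-type array 2 had the lowest wild-type value for 47 of 73 members, 64.4%, where it did so for 30.5% of all genes. Among mutant arrays, array 1 was the highest for 41 of 73 members, 56.2%, where it was so for 28.4% of all genes. The families differed in this, with 19 of 25 flp genes (76%) and 22 of 48 nlp genes (45.8%), a contrast that was not tested. The median distance of the flp genes from their own means was 0.17, -0.21 and -0.18 on mutant arrays 1 to 3 and 0.17, -0.085 and 0.23 on wild-type arrays 1 to 3. Mutant array 1 thus sat with wild-type arrays 1 and 3, and wild-type array 2 sat with mutant arrays 2 and 3. For nlp genes the same medians were 0.016, -0.07 and -0.07 in tdp-1(ok803) and 0.084, -0.10 and 0.13 in wild type. The 2 ranges overlapped in both families.

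**Figure D3:**
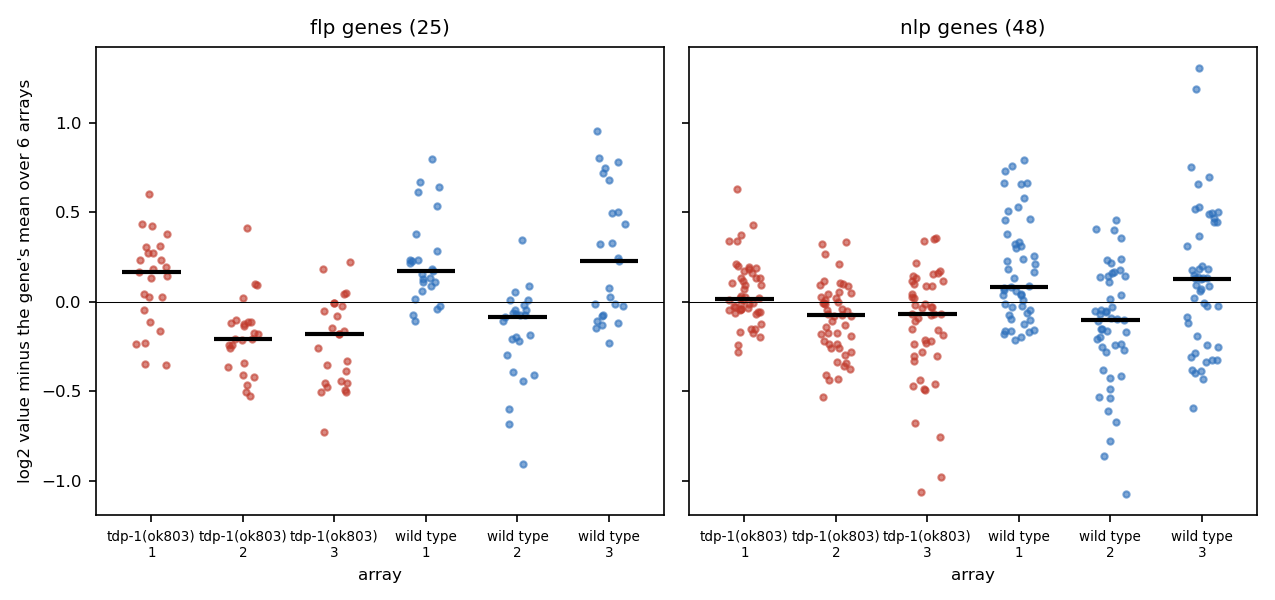
Distance of each gene's log2 value from its mean over the 6 arrays (y axis), for 25 flp genes (left) and 48 nlp genes (right) on each array (x axis), with tdp-1(ok803) in red, wild type in blue and black bars at the medians. Wild-type array 2 lies low with mutant arrays 2 and 3, and its flp median is -0.085.

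The 3' minus 5' control gap moved with part of this pattern. At fixed genotype, the fitted slope on the gap was negative for 17 of 25 flp genes and 28 of 48 nlp genes (68.0% and 58.3%), where it was negative for 35.9% of all genes. Median slopes were -0.085 for flp, -0.06 for nlp and 0.067 for all genes, in log2 units per unit of the gap. With the gap as a covariate the flp median was -0.11 and the nlp median -0.05, while the median of all genes was -0.03, and 0 members passed. Without wild-type array 2 the flp median was -0.35, and without wild-type array 3 it was -0.085. The nlp median was -0.015 without wild-type array 1 and -0.06 without mutant array 2. The sign of both medians was thus negative with each array left out, while their size depended strongly on single arrays. The flp median ran from -0.35 to -0.085 and the nlp median from -0.12 to -0.015, the latter close to the median of all genes. The part of RNA integrity in these medians was not tested beyond this covariate.

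The members with the widest range over the 6 arrays showed this most, and they were picked after their values were seen. The gene nlp-80 gave 6.57, 6.48 and 5.41 in tdp-1(ok803), against 6.84, 5.31 and 7.69 in wild type. Its wild-type values alone spanned its whole range, and its slope on the gap was -1.10. The gene nlp-18 gave 6.95, 6.25 and 5.52 in tdp-1(ok803), against 6.90, 6.09 and 7.77 in wild type, with high and low arrays in both genotypes. For flp-19 the mutant values were 6.41, 5.76 and 5.48, against 6.19, 5.07 and 6.93 in wild type. The spread between replicates was larger in wild type than in the mutant for 39 of 48 nlp genes (81.3%) and 14 of 25 flp genes (56.0%), where it was larger in wild type for 56.1% of all genes.

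The intervals show how large a change the arrays leave possible. The 95% interval of the difference reached no further than a 2-fold change in either direction for 60 of 73 members, 19 flp and 41 nlp genes. In the other 13 it reached past 2-fold lower in the mutant, and in 0 members did it reach past 2-fold higher. Of all 17118 genes, the interval stayed within 2-fold for 16150. It reached past 2-fold lower for 704 of all genes and past 2-fold higher for 280. The widest intervals were those of nlp-80, from -1.79 to 0.86, and nlp-18, from -1.77 to 0.40. The median distance from the difference to the end of its interval was 0.51 for flp and 0.44 for nlp genes, against 0.34 for all genes. The smallest flp intervals included that of flp-23, from -0.21 to 0.30, although its values of 3.82 to 3.98 on all arrays lie among the low values of the array.

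**Figure D4:**
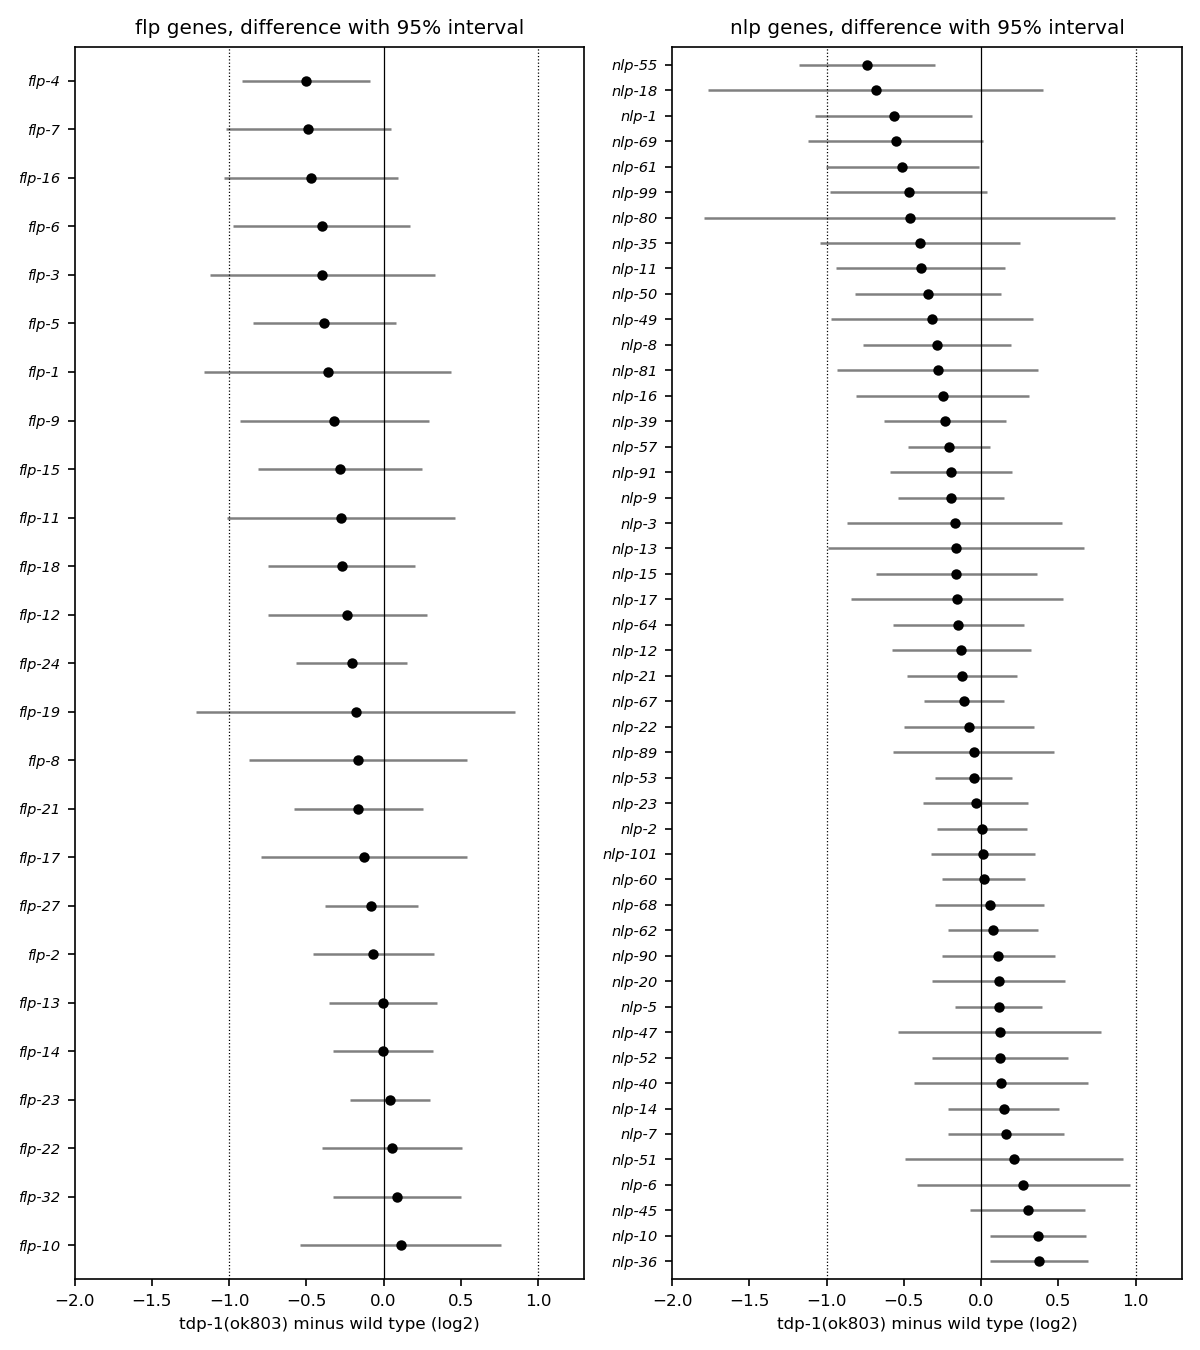
Difference of tdp-1(ok803) minus wild type on the log2 scale (x axis, points) with its 95% interval from limma (bars) for the 25 flp genes (left) and 48 nlp genes (right), most negative at the top. Dotted lines mark 2-fold changes, and 13 intervals cross the left one, among them nlp-18 from -1.77 to 0.40.

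Second probe sets of the same gene did not always give the same value. They were present for 9 members. The 3 probe sets of flp-1 gave differences of -0.36, -0.08 and -0.0043, and the third of these had wild-type values from 4.14 to 6.66. The 3 probe sets of flp-15 gave -0.28, -0.15 and 0.12, so their sign differed. For nlp-99 the brighter probe set differed by -0.47 and the other by 0.10, for nlp-9 they differed by -0.19 and 0.014, and for nlp-6 by 0.27 and 0.0043. The pairs of flp-8 (-0.17 and -0.45), flp-19 (-0.18 and -0.09), flp-2 (-0.07 and -0.10) and nlp-16 (-0.25 and -0.24) kept their sign. Probe sets of the cross-hybridising kind stood for 3 flp genes (flp-1, flp-15 and flp-21) and 4 nlp genes (nlp-36, nlp-50, nlp-51 and nlp-61).

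The members lie on all 6 chromosomes, with 10 of 25 flp and 18 of 48 nlp genes on the X chromosome in the WBcel235 gene table. Medians were -0.25 for X-linked and -0.16 for autosomal flp genes, and -0.06 for X-linked and -0.16 for autosomal nlp genes, so the 2 families ran in opposite order. Members stand next to each other in 6 pairs of neighbouring protein-coding genes. The neighbours flp-3 and flp-2 on the X chromosome differed by -0.40 and -0.07, and nlp-9 and nlp-13 on chromosome V by -0.19 and -0.16. The X-linked row nlp-45, nlp-22, nlp-23 and nlp-2 differed by 0.30, -0.08, -0.04 and 0.0056. Neighbours did not in every pair share a sign. The antimicrobial-type genes nlp-24 to nlp-34, left out of the nlp family here, had a median of 0.44 over 10 measured genes, 9 of them higher in the mutant. Of these genes 0 passed (limma, smallest adjusted p = 0.421). The unadjusted p was under 0.05 for 2 (20%), where 6.97% of probe sets had one. The probe sets of nlp-27 to nlp-31 are of the kind marked as open to cross-hybridisation. The median distance of the 10 genes from their own means was -0.14 on mutant array 2 and 0.21 on wild-type array 3, so the genotypes overlapped.

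The machinery that makes, carries, reads and destroys peptides was then examined. Of 160 measured genes in 5 lists, 1 passed an adjusted p of 0.05 in limma, where 0.0577% of all probe sets passed. It was the neprilysin-like metallopeptidase gene nep-14. Neprilysins are membrane peptidases known for cutting neuropeptides outside cells. Values of nep-14 (F40B5.1, chromosome X) were 6.82, 6.61 and 6.88 in tdp-1(ok803), against 5.25, 5.22 and 4.96 in wild type. Each mutant value lay more than a 2-fold step above each wild-type value, and nep-14 rose by 1.63 ± 0.14 (SE, limma adjusted p = 0.00972). The limma adjusted p was 0.127 without mutant array 1, 0.0754 without mutant array 3, 0.0668 without wild-type array 1, 0.185 with the replicate number as a block and 0.613 without moderation. Each of these ended the call, while the difference stayed between 1.57 and 1.68. Whether the wild-type level of nep-14 lay above background was not assessed. The other neprilysins gave no second call among 25 measured, with a list median of 0.020 and 14 positive and 11 negative differences. The unadjusted p was under 0.05 (limma) for 2 of the 25 (8%), nep-14 included, where 6.97% of probe sets had one. Groups were apart for 4 of the 25 (16%), where they were apart for 11.6% of probe sets. The gene nep-1 gave 7.52, 7.32 and 7.54 in tdp-1(ok803), against 7.96, 7.72 and 8.08 in wild type, groups that did not overlap, with a difference of -0.46 ± 0.14 (SE, limma adjusted p = 0.516). The gene nep-22 differed by -0.38.

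**Figure D5:**
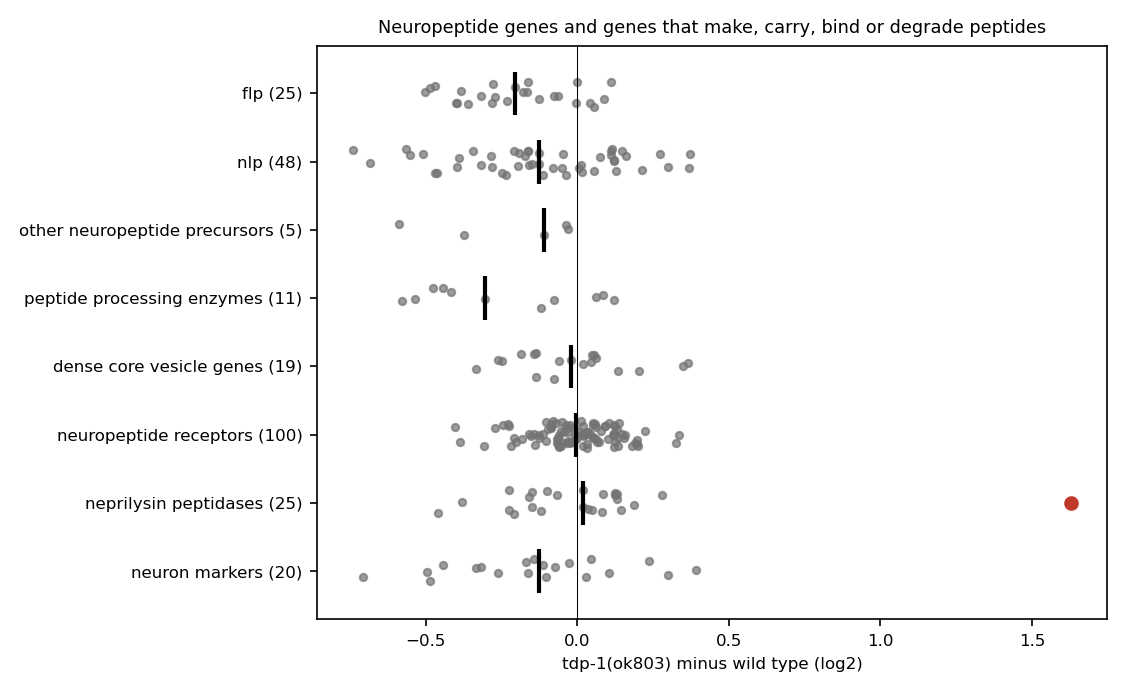
Difference of tdp-1(ok803) minus wild type on the log2 scale (x axis) for each gene (points) of the flp and nlp families, 5 lists of peptide pathway genes and a list of neuron markers, with the number of measured genes in brackets and black bars at the medians. The single gene that passed, nep-14 at 1.63, is drawn in red, and the medians of flp (-0.20), nlp (-0.13) and peptide processing enzymes (-0.31, or -0.15 without mutant array 3) lie left of 0.

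Enzymes that turn precursors into peptides had a median of -0.31 over 11 genes, 8 with a negative difference and 0 passing (limma). The unadjusted p was under 0.05 for 1 of them (9.09%), where 6.97% of probe sets had one. The list median was -0.15 without mutant array 3, and fitting the control gap as a covariate gave -0.20. The convertase gene egl-3 gave 9.09, 8.65 and 9.18 in tdp-1(ok803), against 9.57, 9.41 and 9.27 in wild type. Its groups did not overlap, and the difference was -0.44 ± 0.17 (SE, limma adjusted p = 0.639). Groups were apart for 1 of the 11 genes (9.09%), where they were apart for 11.6% of probe sets. The amidating enzyme gene pghm-1 differed by -0.42 and the carboxypeptidase gene egl-21 by -0.58 (limma adjusted p = 0.759 and 0.780). For egl-21 the mutant values were 6.48, 6.51 and 5.88, against 7.21, 6.23 and 7.18 in wild type, and wild-type array 2 again lay among the mutant values. The 19 dense core vesicle genes had a median of -0.02, with hid-1, needed for vesicle maturation, at 0.35, the vesicle kinesin gene unc-104 at -0.34 and the Rab27 gene aex-6 at -0.25. Of 19, 10 differences were negative, and 0 genes passed or had an unadjusted p under 0.05 (limma).

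The 100 measured receptor genes showed a median of -0.0043, with 51 negative and 49 positive differences and 0 passing (limma). The unadjusted p was under 0.05 for 3 of them (3%), where 6.97% of probe sets had one. The receptor gene sprr-2 differed by -0.40, npr-12 by -0.39 and npr-36 by 0.33 (limma adjusted p = 0.537, 0.652 and 0.608). The receptor median lay near the median of all genes, 0.013, and ran from -0.067 to 0.069 with 1 array left out. With the control gap as a covariate it was -0.08, and 77 of 100 differences were negative, where 56.1% of all genes had one. A filter at the 30th percentile of mean signal kept 49 of the 100, so many receptors had low values. Of the other peptide precursors, 5 of 7 were measured and all 5 had negative differences, 4 of 5 with quantile normalization, with array weights or without mutant array 2. They were snet-1 at -0.59, pdf-1 at -0.37, pdf-2 at -0.11, lury-1 at -0.04 and capa-1 at -0.03, and none passed or had an unadjusted p under 0.05 (limma). The gene snet-1 had 5.24, 5.22 and 4.72 in tdp-1(ok803) and 5.92, 4.65 and 6.39 in wild type, with wild-type array 2 the lowest of all.

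Markers of neurons as such were measured beside the peptide genes. Of 20 neuron markers, 4 of them also in the lists above, 14 had a negative difference, with a median of -0.13 and 0 passing (limma). Differences ran from -0.71 to 0.39, and 6 were positive. The unadjusted p was under 0.05 for 4 markers, all lower in the mutant, 20% of them, where 6.97% of probe sets had one. Groups were apart for 3 markers lower and 1 higher in the mutant, 20% of them, where they were apart for 11.6% of probe sets. The mean log2 level of the list was 6.70 to 6.80 on mutant arrays and 6.86 to 6.97 on wild-type arrays, ranges that did not overlap. The median distance of the same markers from their own means did overlap, at -0.126 to -0.0137 on mutant arrays and -0.0359 to 0.146 on wild-type arrays. The synaptic vesicle gene rab-3, named because it had the smallest adjusted p of the list, gave 7.29, 6.95 and 7.03 in tdp-1(ok803). Its wild-type values were 7.77, 7.76 and 7.86 (difference -0.71 ± 0.13, SE, limma adjusted p = 0.218). For flp and nlp genes the mean levels overlapped, at 6.12 to 6.46 and 5.67 to 5.85 on mutant arrays and 6.16 to 6.60 and 5.67 to 5.98 on wild-type arrays. Of 17 hypodermis and cuticle markers 14 had a negative difference (median -0.37), at mean levels of 8.56 to 8.79 on mutant and 8.76 to 9.44 on wild-type arrays. Of 15 body wall muscle markers 12 did (median -0.21), at 9.22 to 9.33 on mutant and 9.25 to 9.76 on wild-type arrays. In both tissues the ranges overlapped, and 0 markers passed in limma. An unadjusted p under 0.05 was found for 6 hypodermis and cuticle markers, 5 lower and 1 higher in the mutant, and for 3 muscle markers, all lower. These are 35.3% and 20% of the lists, where 6.97% of probe sets had one. The marker lists were chosen with earlier results of these data known, so their shares are descriptions and were not tested. The median difference was -0.12 for 17 germline markers, -0.06 for 9 sperm markers and 0.043 for 14 intestine markers. The part of tissue or stage makeup in the medians of the peptide genes was not tested.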

How the data were processed

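The authors deposited log2 values, 1 per probe set and array. Per the submitters' processing notes the tools were RMA and Partek, whose versions and settings those notes leave out, and the log2 scale was read from the values. Of 22625 probe sets 77 are controls. Of the 22548 tested, the platform annotation gives 20766 a single gene symbol and 887 several, and does not list 895. The RefSeq table of WBcel235 served to bring symbols up to date, and 65 probe sets with a single symbol had no gene ID match in it. Probe sets with several symbols were not named, which left out 2 that hold an nlp gene.

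Each probe set was fitted on genotype alone with lmFit and eBayes of limma 3.58.1 (R 4.3.3). P-values are two-sided and adjusted by Benjamini-Hochberg over all probe sets tested. Lists are described by counts and medians. The members and lists were chosen with earlier results of these data known. Named genes were tdp-1, within each family the 8 smallest p and the 2 largest differences in each direction, the role lists and the 3 smallest p of each pathway list. Others were picked after their values were seen. The script was tested on data with known answers before use. The number of arrays limits precision, and signal over background was not assessed. Figures were drawn with matplotlib 3.10.9.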

Additional observations from a re-analysis of the deposited data

How the results depend on the processing

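The number of flp and nlp genes called was 0 and 0 with eBayes trend and robust, an unmoderated model, quantile normalization, equal array medians, a filter at the 30th percentile of mean signal (which removed 1 flp and 11 nlp genes), the replicate block, the 3' minus 5' covariate, each array left out and an adjusted p threshold of 0.1. The exception was limma's array weights, which called 5 flp, 15 nlp and 47 pathway genes and 6291 probe sets. The weights were 4.16 for mutant array 1 and 7.91 for wild-type array 1, against 0.267 to 0.542 for the other 4 arrays, so that fit rests largely on 1 array of each genotype.

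Probe sets called were 13 with all arrays, 0 in the unmoderated model, 7 with equal medians, 5 with the replicate block, 25 with the covariate, 25 at a threshold of 0.1 and 4 to 97 with 1 array left out (97 without wild-type replicate 2). The pathway call, nep-14, became 0 calls in the unmoderated model and with the replicate block, and 0 to 1 with 1 array left out, lost without mutant replicates 1 or 3 or wild-type replicate 1. The nep-14 difference stayed between 1.54 and 1.71 with any array left out. Deviations of same-numbered arrays correlated at 0.05, -0.61 and -0.46, so the numbers were not taken to pair the samples. The flp median ran from -0.35 to -0.085 and the nlp median from -0.12 to -0.015 (without wild-type replicate 1) with 1 array left out, and over all alternatives they ran from -0.35 to -0.03 and from -0.16 to -0.015. Precision is bounded by there being 3 arrays of each genotype.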
